A study of Mus musculus with 4 samples.

Results

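The 37 genes described here encode proteins of homologous recombination and of the Fanconi anaemia pathway, and they were measured in lung endothelial cells (ECs) 7 days after unilateral pneumonectomy (PNX), the surgical removal of 1 lung. They were taken by symbol from a list of named genes, and all 37 were found among the 24063 gene symbols of the deposited tables. RNA was sequenced from ECs of C57BL6J mice, 8 weeks old and labelled male, either after PNX or after a sham operation. Sham and PNX groups had 2 libraries each, and every library pooled the cells of 2 mice. Cells were isolated from whole lungs with magnetic beads coupled to an antibody to CD31, a surface protein of ECs that some leukocytes also carry. The methods of the study describe no transgene or deleted allele in the mice used for RNA sequencing.

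Homologous recombination repairs a broken chromosome by copying the sister chromatid, and it is therefore used mostly in cells that have begun to replicate their DNA. An end is first cut back to a single strand, the BRCA proteins then prepare that strand for pairing with its template, and helicases and nucleases later take the joined molecules apart. The Fanconi anaemia pathway deals with strands linked to each other by a crosslink: a core complex attaches ubiquitin to the FANCD2-FANCI clamp, and recombination finishes the repair. Mature lung endothelium divides rarely, and divides more in the growth that follows PNX.

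With 1 transcript kept per gene, the libraries held between 41367438 and 50952879 counts. A gene needs 3 counts to be seen at such depth, a floor that covers counting error only and lay between 0.0589 and 0.0725 CPM, a count scaled to the size of its library. All 37 genes passed the filter on low counts, and none was near that floor. The lowest raw count of any of them was 40, for Exo1 in sham library 2. Together the 37 genes took 0.0449% to 0.0454% of the counts in the sham libraries and 0.0590% to 0.0591% in the post-PNX libraries. The 44 genes of chromosome Y had 0 counts in all 4 libraries and Xist had between 29890 and 36875, although the mice were labelled male. Both groups were alike in this. The mean chi-square per gene was 1.77 between the sham libraries, 1.53 between the post-PNX libraries and 119 to 134 between groups. The libraries of a group thus differed by little more than counting noise. They were used as separate samples because the methods give each as a pool of 2 mice, which the chi-square cannot show. Small p-values below rest on this small spread. Were the libraries of a group repeats of 1 pool, these p-values would measure technical spread only.

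The promoters of the 4 genes with the largest rises and of the 2 with the largest falls, among those with an entry in the RefSeq table, are shown first because they hold the letters searched for below. Each is the RefSeq sequence of GRCm38.p6 (mm10) from 250 bases before to 50 bases after a transcription start of the gene in that table, written 5′ to 3′ in the direction of the gene. Capitals mark matches on either strand to the letters CCAAT or to the short E2F core letters given below. The genes are Rad51ap1 at chr6:126939538-126939837 (minus strand), Chek1 at chr9:36726609-36726908 (minus strand), Brca1 at chr11:101551906-101552205 (minus strand), Ube2t at chr1:134962315-134962614 (plus strand), Fancb at chrX:164980342-164980641 (plus strand) and Atm at chr9:53536622-53536921 (minus strand).
Rad51ap1: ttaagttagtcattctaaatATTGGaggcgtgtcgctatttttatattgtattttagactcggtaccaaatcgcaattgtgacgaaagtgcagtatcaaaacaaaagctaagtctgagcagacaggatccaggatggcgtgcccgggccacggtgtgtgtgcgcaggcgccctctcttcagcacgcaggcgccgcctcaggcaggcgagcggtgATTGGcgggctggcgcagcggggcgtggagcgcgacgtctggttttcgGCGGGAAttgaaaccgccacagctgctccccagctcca
Chek1: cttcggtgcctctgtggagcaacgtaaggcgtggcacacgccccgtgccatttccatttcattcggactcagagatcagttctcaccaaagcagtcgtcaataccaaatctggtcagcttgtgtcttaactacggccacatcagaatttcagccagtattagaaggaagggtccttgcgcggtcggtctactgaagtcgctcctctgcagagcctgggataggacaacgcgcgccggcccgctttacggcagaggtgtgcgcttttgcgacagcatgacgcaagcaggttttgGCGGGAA
Brca1: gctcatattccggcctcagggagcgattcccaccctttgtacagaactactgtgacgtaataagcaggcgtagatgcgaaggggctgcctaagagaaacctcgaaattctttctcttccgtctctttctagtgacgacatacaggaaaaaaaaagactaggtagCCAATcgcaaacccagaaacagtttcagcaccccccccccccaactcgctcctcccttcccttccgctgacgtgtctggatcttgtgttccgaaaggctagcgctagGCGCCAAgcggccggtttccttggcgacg
Ube2t: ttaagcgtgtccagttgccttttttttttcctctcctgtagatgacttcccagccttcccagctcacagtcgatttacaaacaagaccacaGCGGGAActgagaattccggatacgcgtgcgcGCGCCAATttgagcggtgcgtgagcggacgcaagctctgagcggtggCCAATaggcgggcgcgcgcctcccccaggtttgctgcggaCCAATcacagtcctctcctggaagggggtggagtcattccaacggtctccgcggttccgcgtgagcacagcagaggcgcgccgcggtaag
Fancb: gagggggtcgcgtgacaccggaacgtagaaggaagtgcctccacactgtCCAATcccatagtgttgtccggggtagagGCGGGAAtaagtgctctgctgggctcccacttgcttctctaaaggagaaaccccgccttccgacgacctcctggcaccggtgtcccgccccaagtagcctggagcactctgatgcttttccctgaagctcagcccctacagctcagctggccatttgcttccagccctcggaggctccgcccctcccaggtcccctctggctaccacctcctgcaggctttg
Atm: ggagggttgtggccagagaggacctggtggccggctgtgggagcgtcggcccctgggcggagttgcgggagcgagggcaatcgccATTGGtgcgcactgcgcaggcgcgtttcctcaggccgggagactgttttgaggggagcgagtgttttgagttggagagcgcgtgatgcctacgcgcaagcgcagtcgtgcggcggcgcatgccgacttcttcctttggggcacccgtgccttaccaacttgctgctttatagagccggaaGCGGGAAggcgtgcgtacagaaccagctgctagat

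Many recombination and Fanconi genes had more RNA in the CD31-selected cells after PNX, and the rise was uneven. These cells are called ECs here after their label, although markers of other cell types were present and changed, as given below. Of the 37 genes, 15 rose by more than 2-fold, and none fell that far. Such a call needed, besides the fold threshold of 1 on the log2 scale, a p under 0.01 from the quasi-likelihood test of edgeR, adjusted by Benjamini-Hochberg over the 16208 genes tested. Over all genes tested 5.9% passed in the upward direction and 1.66% in the downward direction. At an adjusted p under 0.01 and any size of change, 25 of the 37 were higher and 3 were lower, against 29.3% and 27.8% of all genes tested, and 9 were not called. The share of these genes that was higher therefore lay above that of all genes, and the share that was lower lay below it. On the log2 scale the 37 genes changed by -0.53 to 2.73 with a median of 0.51, against a median of 0.00 for all genes tested. The counts behind these shares were 957 higher and 269 lower past both thresholds, and they became 1328 and 84 when libraries were scaled to 12 endothelial marker genes, which moved the median of all genes by 0.26. Falls of about that size or smaller, such as those of Atm and Atr, therefore depend on the scaling. Differences in fold change between genes were not tested. Both post-PNX libraries lay above both sham libraries for 28 genes and below them for 6, and the groups overlapped for Fance, Mus81 and Top3a. Among all genes tested 40.8% lay wholly above and 40.5% wholly below. In RNA from a cell population, a change in the number of cells of a kind and a change in the RNA of each cell cannot be told apart.

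**Figure D1:**
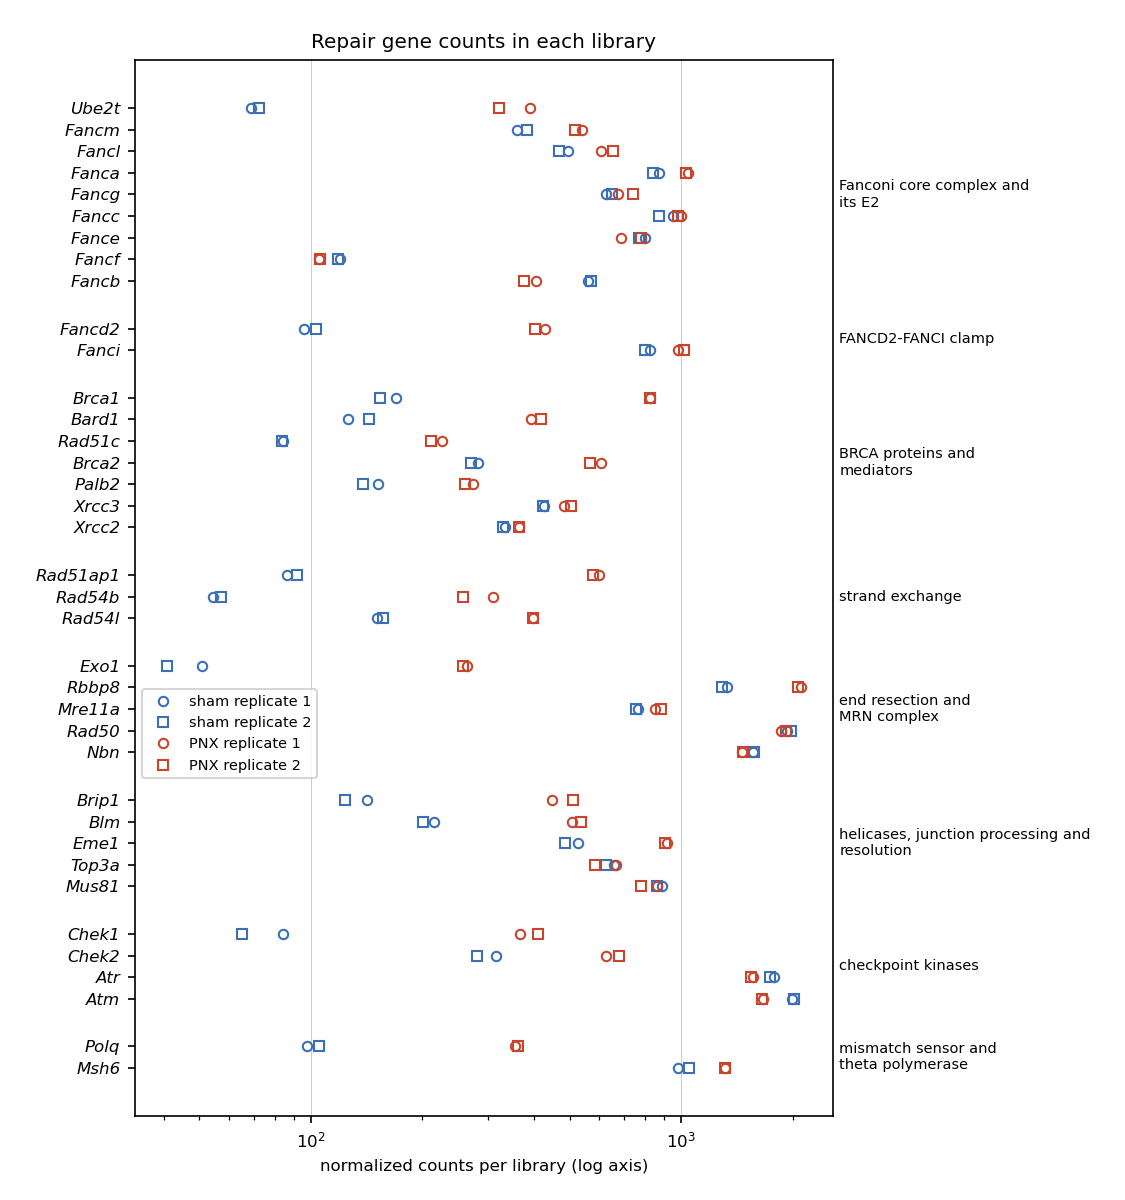
Normalized counts of each gene in each library on a log axis, with the genes grouped by role, sham libraries in blue and post-PNX libraries in red. The groups are far apart for the 15 genes with the largest rises, and Brca1, for example, moved from 154 and 169 to 823 in both post-PNX libraries.

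Brca1 and Bard1 had the largest rises of the 7 genes grouped as BRCA proteins and mediators. The BRCA1-BARD1 dimer is a ubiquitin ligase that promotes resection and strand pairing. Brca1 (chr11:101488761-101551955, minus strand of mm10, 23 exons) had 169 and 154 normalized counts in the sham libraries and 823 and 823 after PNX, where a normalized count is a count scaled to the mean library size. The groups were far apart, with a log2 fold change of 2.34 ± 0.08 (SE) and an adjusted p of 1.19e-34. Bard1 had 126 and 144 counts in sham ECs and 393 and 418 after PNX, a log2 fold change of 1.59 ± 0.10 with an adjusted p of 2.1e-21. Brca2, which acts on the resected single strand, went from 283 and 271 to 609 and 568 counts (log2 fold change 1.09 ± 0.08, adjusted p 3.43e-19). Palb2, the bridge between BRCA1 and BRCA2, went from 151 and 139 to 273 and 261 counts. Its log2 fold change of 0.88 ± 0.11 (adjusted p 3.34e-10) stayed under the fold threshold. Both post-PNX libraries lay above both sham libraries, as they did for 40.8% of all genes tested.

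Rad51c, Xrcc2 and Xrcc3, whose proteins form small complexes that assist strand pairing, differed in the size of their change. Rad51c had 84.3 and 83.6 normalized counts in sham ECs and 226 and 211 after PNX, a log2 fold change of 1.38 ± 0.13 (adjusted p 3.22e-14). Xrcc3, which binds RAD51C in the CX3 complex, had 426 and 423 counts in sham ECs and 482 and 505 after PNX. Its log2 fold change of 0.22 ± 0.07 had an adjusted p of 0.00824, a call that was lost when any 1 of the 4 libraries was left out (adjusted p 0.0138 to 0.0689). Xrcc2, a member of the other such complex, had 334 and 330.3 counts against 366 and 364 and was not called (log2 fold change 0.13 ± 0.08, adjusted p 0.15). Per unit of length, the TPM of Xrcc3 was 6.16 and 6.17 times that of Rad51c in the sham libraries and 2.60 and 2.92 times after PNX.

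The 3 genes of strand exchange, the step in which the broken strand invades its template, all rose more than 2-fold. Rad51ap1, which stimulates strand invasion, had the largest change of the 37 genes. It had 86.1 and 91.7 normalized counts in sham ECs and 599 and 578 after PNX, a 6.63-fold difference (log2 fold change 2.73 ± 0.10, adjusted p 4.07e-33). Rad54b, a DNA translocase, went from 54.4 and 57.1 to 309.5 and 257 counts (log2 fold change 2.35 ± 0.14, adjusted p 6.15e-23). Its relative Rad54l, the main translocase of this step, went from 150.4 and 157 to 398 and 399 counts (log2 fold change 1.38 ± 0.10, adjusted p 2.19e-19). The TPM of Rad54b was 0.38 of that of Rad54l in both sham libraries and 0.818 and 0.678 of it after PNX. Summed over the 3 genes, TPM went from 3.97 and 4.18 in sham ECs to 19.0 and 18.0 after PNX.

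Among the genes that cut back broken ends, the exonuclease gene Exo1 stood apart. Exo1 had 50.7 and 40.8 normalized counts in sham ECs, the lowest TPM of the 37 genes (mean 0.288), and 263 and 257 after PNX (log2 fold change 2.50 ± 0.15, adjusted p 3.05e-23). Rbbp8 encodes CtIP, which starts resection with the MRN complex, and it rose from 1333 and 1292 to 2105 and 2068 counts (log2 fold change 0.67 ± 0.04, adjusted p 1.66e-22). The MRN complex of MRE11, RAD50 and NBN, which finds the break, differed little between groups. Nbn had the highest TPM of the 37 genes in both groups, 21.8 in sham ECs and 19.9 after PNX on average, and its log2 fold change of -0.10 ± 0.04 was not called (adjusted p 0.0374). Rad50 was not called either, with 1929 and 1986 counts in sham ECs and 1859 and 1916 after PNX (log2 fold change -0.05 ± 0.04, adjusted p 0.229). Mre11a had 764 and 756 counts against 848 and 882, and its log2 fold change of 0.19 ± 0.06 was called with an adjusted p of 0.00294. That call was lost in DESeq2's Wald test (adjusted p 0.0947) and without sham library 1, sham library 2 or post-PNX library 2 (adjusted p 0.0143, 0.0182 and 0.0383).

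The helicase genes Brip1 and Blm rose more than 2-fold, while Top3a and Mus81 of the same group were not called. Brip1, the helicase FANCJ that binds BRCA1, went from 141 and 123 to 449 and 511 normalized counts (log2 fold change 1.85 ± 0.10, adjusted p 7.74e-25). Blm, the helicase that with topoisomerase III alpha separates joined molecules without crossing over, went from 215 and 201 to 507 and 537 counts (log2 fold change 1.32 ± 0.09, adjusted p 4.12e-21). Top3a, that topoisomerase, had 660.4 and 628 counts in sham ECs and 668 and 586 after PNX. Its groups overlapped and it was not called (log2 fold change -0.04 ± 0.06, adjusted p 0.645). The TPM of Top3a was 3.78 and 3.84 times that of Blm in the sham libraries and 1.62 and 1.34 times after PNX. The nuclease MUS81 and its partner EME1 differed in the same way. Eme1 rose from 525 and 484 to 916 and 904 counts (log2 fold change 0.85 ± 0.06, adjusted p 3.94e-19). Mus81 had 885 and 858 counts in sham ECs and 859.8 and 779 after PNX, which overlapped and were not called (log2 fold change -0.09 ± 0.06, adjusted p 0.169).

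In the Fanconi core complex the E2 enzyme gene was the exception. Ube2t encodes the E2 that carries ubiquitin to the FANCD2-FANCI clamp, and it had 68.8 and 72.4 normalized counts in sham ECs and 391 and 322 after PNX (log2 fold change 2.34 ± 0.13, adjusted p 6.44e-25). Fancl, the E3 ligase of the core complex, rose less, from 496 and 467 to 607 and 655 counts (log2 fold change 0.39 ± 0.07, adjusted p 1.32e-06). The TPM ratio of Ube2t to Fancl was 0.217 and 0.242 in sham ECs and 1.00 and 0.767 after PNX. Fancm, the translocase that anchors the complex on DNA, rose by a log2 fold change of 0.51 ± 0.07 and the scaffold gene Fanca by 0.28 ± 0.05. Fancc, Fance, Fancf and Fancg, which encode scaffold and adaptor subunits, were not called, with log2 fold changes between -0.17 and 0.15 and adjusted p between 0.0355 and 0.297. Fancb, the partner of FANCL in the catalytic part, was the gene with the largest fall of the 37. It had 559 and 572 counts in sham ECs and 406 and 377 after PNX (log2 fold change -0.53 ± 0.07, adjusted p 4.32e-09). Of the 9 genes of this group, 1 rose more than 2-fold, 3 more rose by less, 1 fell and 4 were not called. Over all genes tested 5.9% rose that far, and 29.3% were higher and 27.8% lower at an adjusted p under 0.01. Whether the group differs from these shares was not tested.

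The genes of the clamp behaved differently. Fancd2 (chr6:113531640-113597020, plus strand, 44 exons) had 96.0 and 103 normalized counts in sham ECs and 429 and 402 after PNX (log2 fold change 2.07 ± 0.11, adjusted p 1.31e-25). Fanci (chr7:79392312-79450266, plus strand, 38 exons) had 825 and 798 counts in sham ECs and 978 and 1019.5 after PNX (log2 fold change 0.30 ± 0.05, adjusted p 2.05e-06). The TPM of Fancd2 was 0.112 and 0.125 of that of Fanci in the sham libraries and 0.424 and 0.381 of it after PNX, although the proteins work as a pair. Exons of Fanci share 764 bases, 16.4% of its exonic length, with Polg on the opposite strand, and Polg had 4528 counts in sham ECs and 4067 after PNX. Fancd2 shares 4.66% of its exonic length with Fancd2os. The libraries were stranded, and whether the counting used strand is not given in the sources used here, so reads of Fanci and Polg may not be fully separated.

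Of the 4 checkpoint kinases, the effector genes rose and the sensor genes fell slightly, though not when scaled to endothelial markers. Chek1 encodes the kinase that ATR activates at stalled forks and resected ends, and it went from 84.3 and 65.2 to 368 and 410.0 normalized counts (log2 fold change 2.36 ± 0.12, adjusted p 4.56e-26). Chek2 encodes the target of ATM at double-strand breaks, and it went from 316 and 280.3 to 628 and 679 counts (log2 fold change 1.12 ± 0.08, adjusted p 2.89e-20). Atm had 1998 and 2023 counts in sham ECs and 1664 and 1653 after PNX (log2 fold change -0.28 ± 0.04, adjusted p 6.2e-09). Atr had 1778 and 1740.1 counts in sham ECs and 1564 and 1539.8 after PNX (log2 fold change -0.18 ± 0.04, adjusted p 9.06e-05). The groups did not overlap for any of the 4, but among all genes tested 40.8% lay wholly above and 40.5% wholly below. The falls of Atm and Atr depend on the scaling: when libraries were scaled to 12 endothelial marker genes, Atm was not called (log2 fold change -0.02) and Atr had a log2 fold change of 0.08. The call of Atr was also lost in DESeq2's Wald test (adjusted p 0.0134). The TPM ratio of Chek1 to Atr was 0.113 and 0.0891 in sham ECs and 0.558 and 0.633 after PNX, and that of Chek2 to Atm was 0.843 and 0.738 against 2.01 and 2.18.

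The last 2 genes belong to neighbouring pathways. Polq, the polymerase of theta-mediated end joining, which seals resected ends when recombination fails, went from 97.8 and 105 to 356 and 362 normalized counts (log2 fold change 1.82 ± 0.11, adjusted p 2.13e-22). Msh6, a sensor of mismatched bases, rose from 979 and 1047 to 1315 and 1314 counts (log2 fold change 0.38 ± 0.05, adjusted p 4.26e-10).

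**Figure D2:**
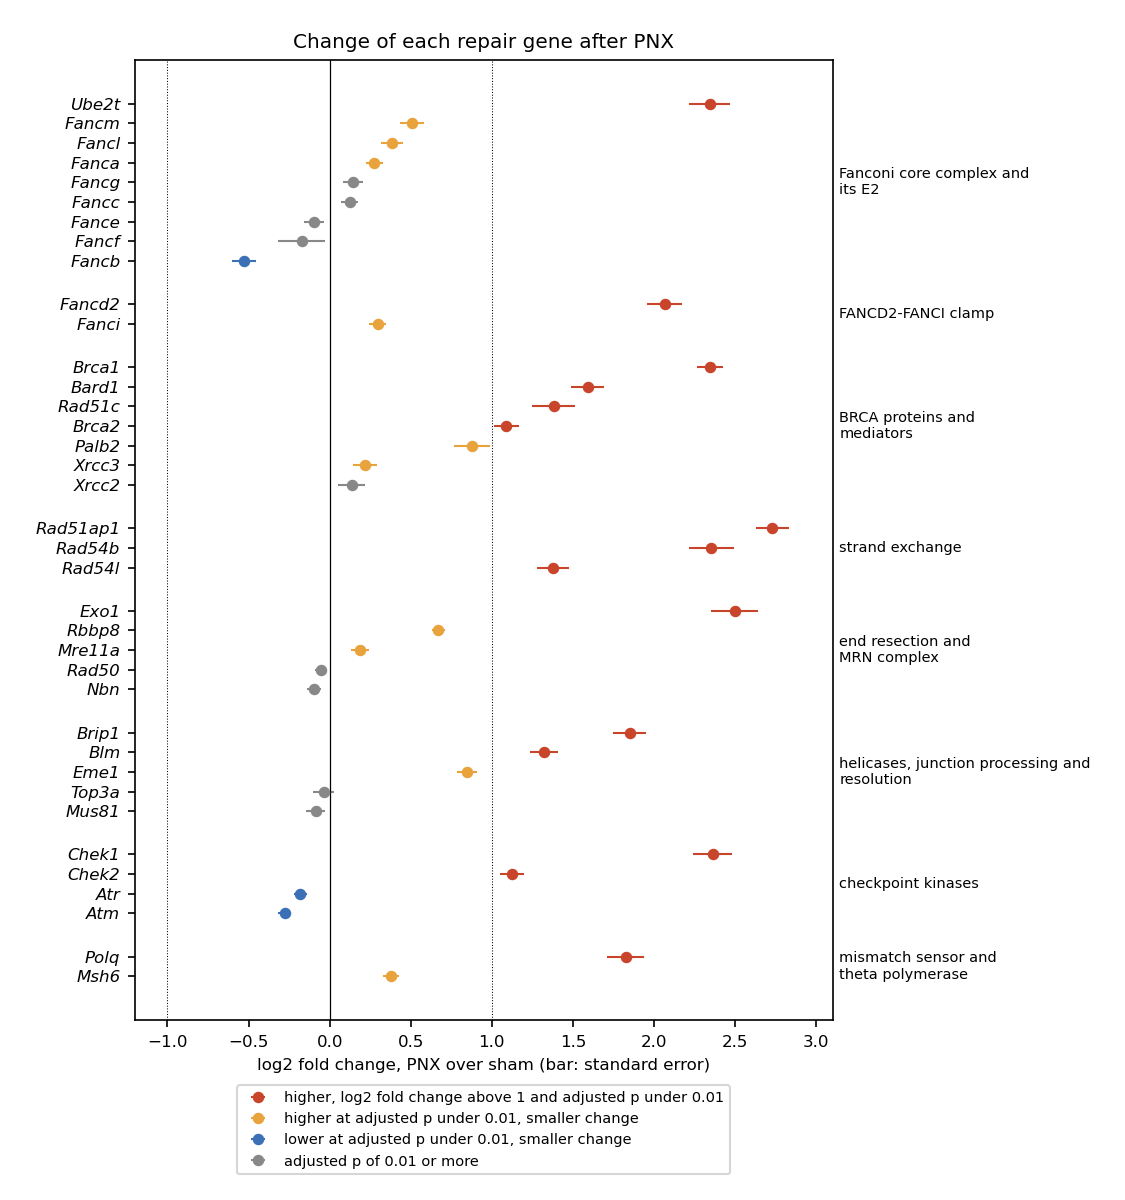
Fitted log2 fold change of each gene, PNX over sham, with its standard error as a bar, grouped by role, with dotted lines at a log2 fold change of -1 and 1. Each role holds at least 1 gene beyond the upper line, 15 in all, and Fancb, Atr and Atm are the 3 genes called lower, of which Atr and Atm are not called with scaling to endothelial markers.

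The genes that rose most were those with the least RNA in sham ECs. TPM as deposited is scaled to transcript length, so it allows levels of different genes to be set side by side. In sham ECs the 15 genes with a rise of more than 2-fold had mean TPM between 0.288 and 4.60, with a median of 0.858, and the other 22 had between 1.34 and 21.8, with a median of 7.71. After PNX these ranges were 1.42 to 10.9 and 2.11 to 19.9. The span from the lowest to the highest of the 37 genes was 75.8-fold in sham ECs and 14.0-fold after PNX. Summed over the 37 genes TPM was 203 and 199 in the sham libraries and 264 in both post-PNX libraries, and the 15 genes made up 9.34% of it in sham ECs and 25.1% after PNX. Across the 37 genes, sham TPM and log2 fold change had a Spearman rho of -0.759, and Pearson's r with log2 TPM was -0.815. The fold change uses the same sham libraries and genes are not replicates, so these values are a description. Chek2, with 4.60 TPM in sham ECs, was the gene with the highest level among the 15, and Fancf, with 2.44, was the gene with the lowest level among those not called.

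**Figure D3:**
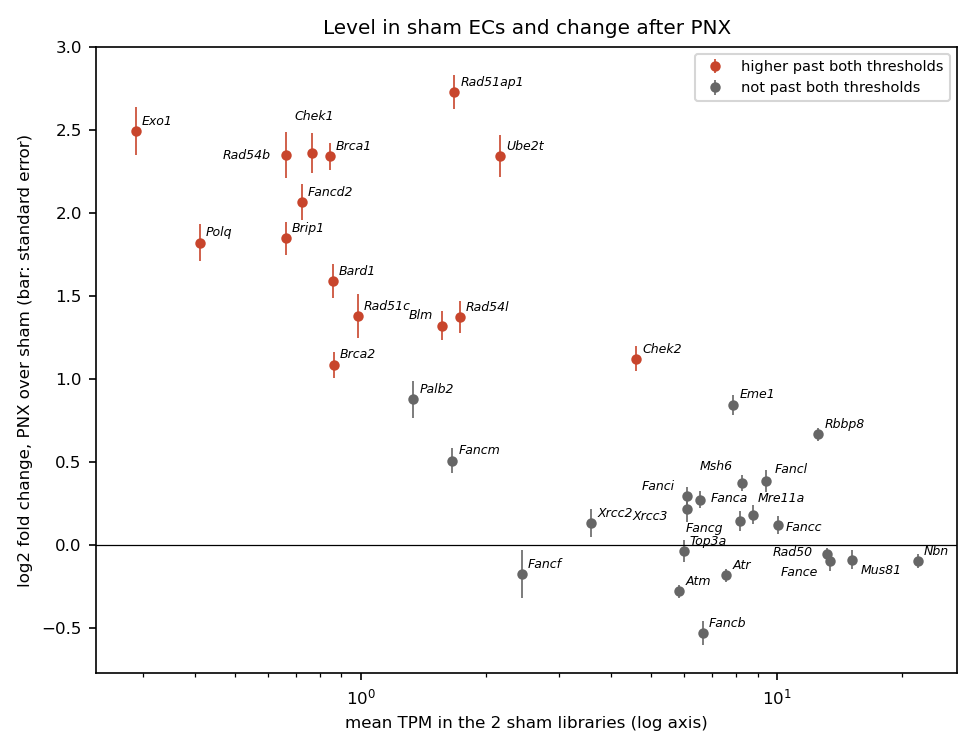
Mean TPM of each gene in the 2 sham libraries (log axis) against its log2 fold change after PNX, with the standard error as a bar. Genes higher past both thresholds (red) lie at the upper left, and the genes above 5 TPM in sham ECs all have a log2 fold change under 1.

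Other genes listed for the same pathway were higher more often than all genes tested, and lower less often. They were chosen with earlier results of these data known, so their shares are a description and no further support. Of 63 further genes for recombination and crosslink repair, 12 rose more than 2-fold, beside 5.9% of all genes tested. At an adjusted p under 0.01, 32 (50.8%) were higher and 14 (22.2%) lower, against 29.3% and 27.8% of all genes tested. The median log2 fold change of the 63 was 0.12. The largest rises among those with at least 100 normalized counts on average were in BC030867 (Hrob, a loader of the MCM8-MCM9 helicase) with 14.8 counts in sham ECs and 195 after PNX, in Parpbp, which restrains recombination, with 59.1 against 475, and in Clspn, the adaptor through which ATR activates CHK1, with 130 against 935. BC030867 and Parpbp reached that mean only through their post-PNX counts, so their places in this order are fixed in part by the rule. The same holds for Neil3 and Ung, named below, with 83.1 and 66.0 counts in sham ECs. The log2 fold changes of BC030867, Parpbp and Clspn were 3.70 ± 0.20, 2.98 ± 0.12 and 2.85 ± 0.08. Of the lists for other kinds of repair, only that for base excision and single strand breaks held genes that rose more than 2-fold. None of 11 genes for non-homologous end joining rose or fell more than 2-fold, 2 were higher and 2 lower at an adjusted p under 0.01, and the named ones were BC029214 (Paxx, -0.25), Xrcc6 (0.22) and Prkdc (-0.20) on the log2 scale. The falls of BC029214 and Prkdc turned to 0.01 and 0.06 with scaling to endothelial markers. The calls of BC029214, Xrcc6 and Prkdc were lost in DESeq2's Wald test (adjusted p 0.0122 to 0.0534). Of 17 genes for nucleotide excision repair 2 were higher and 7 lower, led by Xpc (-0.41), Ercc8 (-0.40) and Uvssa (-0.36), the last 2 of which were not called with scaling to endothelial markers. Of 21 base excision and single strand break genes 8 were higher and 2 lower, and only Neil3 (log2 fold change 3.06) and Ung (1.79) passed both thresholds, followed by Apex1 (0.64). At an adjusted p under 0.01 the shares higher and lower were 18.2% and 18.2% for non-homologous end joining. They were 11.8% and 41.2% for nucleotide excision repair and 38.1% and 9.5% for base excision and single strand break repair. All genes tested had 29.3% and 27.8%. The lists differ in size and their differences were not tested.

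Genes of the cell cycle lists rose after PNX. Of 20 S phase genes, which encode the replication fork and nucleotide supply, 17 rose more than 2-fold and all 20 were higher at an adjusted p under 0.01, with a median log2 fold change of 1.50 and Uhrf1 (2.74), Ccna2 (2.65) and Rrm2 (2.60) at the top. Of 20 mitosis genes all 20 rose more than 2-fold, with a median of 3.06, led by Cenpf (4.06), Ube2c (3.62) and Cdk1 (3.41). Over all genes tested 5.9% rose past both thresholds, and 29.3% were higher at an adjusted p under 0.01. Both lists were drawn up with earlier results of these data known, so their counts are a description. Summed CPM went from 367 and 363 in sham ECs to 958 and 951 after PNX for the S phase list, and from 144 in both sham libraries to 1138 and 1128 for the mitosis list. Of 24 targets of p53, the factor that kinases of the damage response activate, none passed both thresholds, 6 were higher and 8 lower, and the median log2 fold change was -0.03. These shares, 25.0% and 33.3%, are near the 29.3% and 27.8% of all genes tested, so they are no result about this list. Rrm2b (-0.58), Gdf15 (0.51) and Sesn1 (-0.39) had the largest changes of that list. The part of the cell cycle in the change of the recombination genes was not tested.

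**Figure D4:**
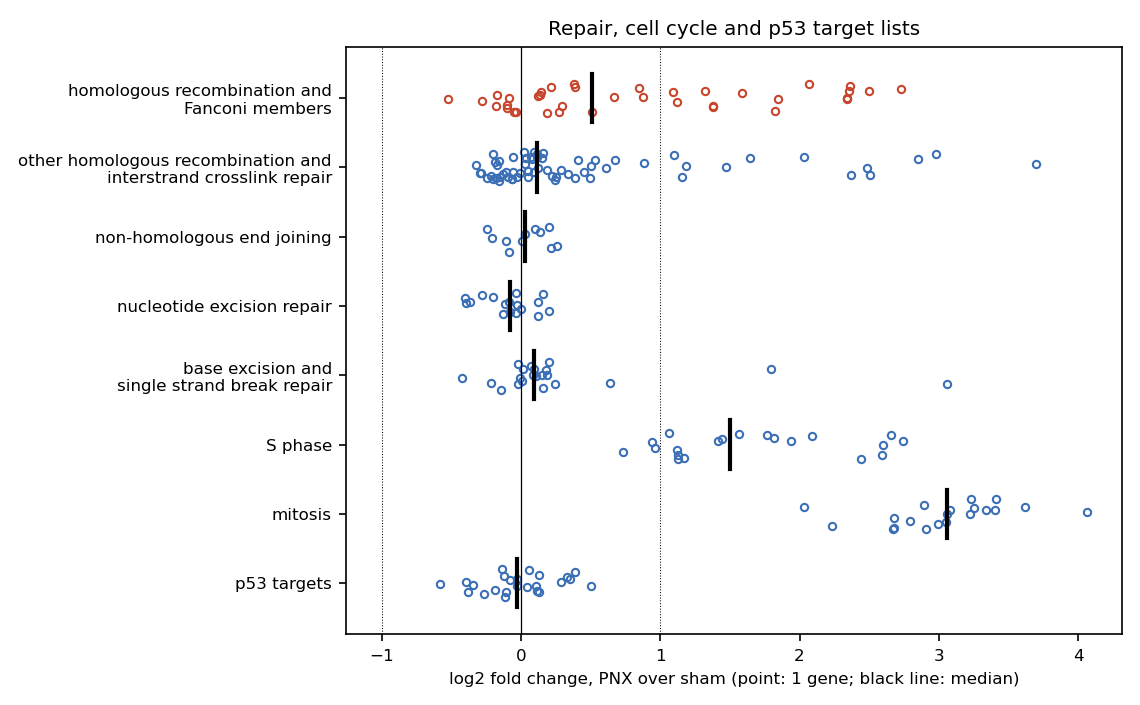
Fitted log2 fold changes of the 37 genes (red) and of the genes of 7 other lists (blue), 1 point per gene, with the median of each list as a black line. The medians of the mitosis list (3.06) and the S phase list (1.50) lie above that of the 37 genes (0.51), and those of the other repair lists lie between -0.08 and 0.12.

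Markers of other cells also differed between groups. The 12 endothelial markers were high in every library, with 11977 and 12100 summed CPM in sham ECs and 10030 and 10067 after PNX, and 10 of them were lower and 1 higher at an adjusted p under 0.01. None of them passed the fold threshold, and Pecam1, which encodes CD31, had 90946 normalized counts in sham ECs and 90400 after PNX. Fibroblast markers went from 1462 and 1474 summed CPM to 5003 and 5036, with 5 of 8 higher past both thresholds, while Pdgfra fell (log2 fold change -0.23, adjusted p 2.4e-15) and Tcf21 was not called (0.02). Macrophage markers went from 610.2 and 602 to 1230 and 1232, with 4 of 9 higher past both thresholds and Mertk lower (log2 fold change -0.33, adjusted p 4.81e-17). Mesothelial markers went from 305 in both sham libraries to 586 and 593, with 4 of 7 higher past both thresholds. Markers shared by all leukocytes went from 1368 and 1365 to 1488 and 1507, with none of 8 past both thresholds. Epithelial markers fell from 9264 and 9315 to 5642 and 5576, with 1 of 8 lower past both thresholds and all 8 lower at an adjusted p under 0.01. In TPM, which is scaled to transcript length, the epithelial list stood above the endothelial list in every library. Summed TPM of the epithelial markers was 20593 and 20679 in sham ECs and 11546 and 11317 after PNX. That of the endothelial markers was 6661.5 and 6727.8 in sham ECs and 5490.3 and 5505.5 after PNX. Scgb1a1 and Sftpc had the highest epithelial values, with mean TPM of 10798 and 7383.7 in sham ECs. T cell markers went from 61.9 and 63.0 to at most 37.8 and B cell markers from 187 and 186 to 113 and 111, and all 7 of each list were lower at that threshold. No marker of these lists was at 0 in all libraries, and the part of such cells in the change of the recombination genes was not tested.

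Several recombination genes start next to a gene that runs the other way, and most such neighbours did not share the rise. In the annotation, 14 of the 37 genes have a protein-coding neighbour on the other strand whose start lies within 1000 bases. Fancd2 starts 30 bases from Emc3, a gene of the membrane insertion machinery, which had 4765 normalized counts in sham ECs and 5200.1 after PNX. Emc3 was called higher (adjusted p 3.2e-05), with a log2 fold change of 0.13 ± 0.03 against 2.07 for Fancd2. Brca1 starts 194 bases from Nbr1, a receptor of autophagy, which fell from 9624 to 8194 counts (log2 fold change -0.23 ± 0.02, adjusted p 4.49e-14). Rad51ap1 starts 375 bases from D6Wsu163e, Rad54l 150 bases from Pomgnt1 and Chek2 202 bases from Hscb, and these neighbours had log2 fold changes of 0.06, -0.01 and -0.07 and were not called. Tex14, 111 bases from Rad51c, had a log2 fold change of 0.62 ± 0.17 with an adjusted p of 0.00138. Mrpl27, 197 bases from Eme1, was also called higher (log2 fold change 0.25 ± 0.05, adjusted p 9.2e-06). Smcr8, 159 bases from Top3a, was called lower (log2 fold change -0.23 ± 0.03, adjusted p 2.75e-08). The fall of Fancb was matched by that of its neighbour Mospd2, 217 bases away, which went from 6577 to 4639 counts with a log2 fold change of -0.50 ± 0.03 (adjusted p 1.88e-25) beside -0.53 ± 0.07. Npat, 307 bases from Atm, had a log2 fold change of 0.00. The differences within pairs were not tested.

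**Figure D5:**
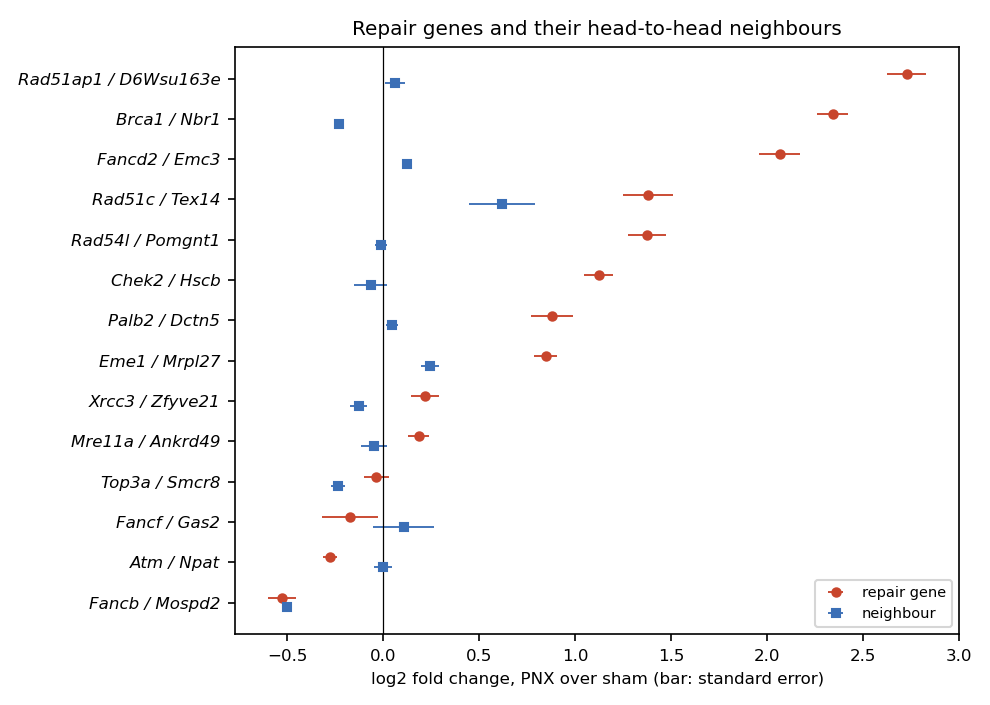
Log2 fold change after PNX, with its standard error, of the 14 genes (red circles) that start within 1000 bases of a gene on the other strand and of that neighbour (blue squares). Apart from Tex14, the neighbours lie between -0.50 and 0.25, and Fancb and Mospd2 lie side by side at -0.53 and -0.50.

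The RefSeq table held a promoter for 29 of the 37 genes, 12 of those that rose more than 2-fold and 17 of the others. Where it held 2 promoters, as for Rad54l and Rad51c, the first was used. The start used is not the outermost annotated start of every gene. For Fancc, for example, the promoter (chr13:63431696-63431995) lies inside the gene (chr13:63301334-63497292). Shares of motifs may differ with another choice of start, which was not tested. The 29 promoters were searched on both strands for letters known from cell cycle promoters. The E2F letters TTTCCCGC, TTTCGCGC, TTTGCCGC or TTTGGCGC, bound by the E2F factors that drive S phase genes, were in 4 of the 12 promoters (33.3%), in 2 of the 17 (11.8%) and in 2.27% of all 32851 promoters of the table. With the first T of each left off, these core E2F letters were in 11 of the 12 (91.7%, all but Rad54l), in 7 of the 17 (41.2%) and in 9.57% of all. This shorter form, which every match of the longer form also holds, was added after the promoters had been read. Its shares were thus shaped by the same promoters, so they are a description and no support for a difference between the sets. In the promoters printed above it begins 12 bases after the start in Rad51ap1, 43 in Chek1, 21 in Brca1 and 15 in Atm, and before the start in Ube2t (159 and 127 bases) and Fancb (172 bases). It was thus present in each of the 6 printed promoters, and its part in the changes was not tested. The CHR letters TTTGAA or TTCGAA, known from genes of late cell cycle, were in 2 of the 12 (16.7%), in 2 of the 17 (11.8%) and in 19.2% of all promoters. The letters CCAAT were in 7 of the 12 (58.3%), in 11 of the 17 (64.7%) and in 37.4% of all. The median GC content was 56.8% in the 12, 60.0% in the 17 and 52.7% in all promoters, and its part in these shares was not tested. A match of letters is not a bound site.

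For 23 of the 37 genes the tables hold 1 transcript. Transcripts of the other 14 share reads, since a read was counted on each transcript it overlapped, so they give no independent check of a change. The log2 ratios of the 5 Palb2 transcripts lay between 0.58 and 0.92. Exons shared with a gene on the opposite strand covered over 10% of the exonic length of Fanci, of Fancf (15.0%, Gas2), of Fanca (12.3%, Zfp276) and of Eme1 (12.1%). The share of Eme1 was 9.04% with Lrrc59, which went from 5067 to 6906 counts, and 3.07% with Mrpl27. Of the 15 genes that rose more than 2-fold, Fancd2 was the one with the largest such share (4.66%).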

How the data were processed

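RNA was measured in 4 libraries of CD31-selected mouse lung ECs, 2 sham-operated and 2 taken 7 days after PNX, grouped by the treatment given in the labels. Per the methods of the study, each library is a pool of 2 mice. The counts cannot show that the pools of a group were separate. The methods of the study describe a stranded mRNA kit and paired-end reads. Per the labels, reads were aligned to mm10 with STAR (version not given). The counting program is not given in the sources used here. The authors deposited whole-number counts for 33068 RefSeq transcripts, with no normalization, and TPM values scaled to transcript length beside them, which were used only to compare levels between genes.

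Each of 24063 symbols was represented by 1 transcript, the one with the largest sum of counts. Counts were tested in R 4.3.3 with edgeR 4.0.16 (filterByExpr, TMM factors between 0.9985 and 1.0026, quasi-likelihood F test, no covariate, Benjamini-Hochberg adjustment over 16208 genes). SE is the size of the log2 fold change divided by the square root of F. Thresholds of the study's methods were used (log2 fold change beyond 1, adjusted p under 0.01), and adjusted p under 0.01 alone as a second call. An exact test on 1 gene with 2 libraries against 2 cannot give a p under 0.333. The steps were tested on simulated data.

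The genes, roles, lists and motifs were chosen with earlier results of these data known. From each list up to 3 genes are named, those with the largest change among genes with an adjusted p under 0.01 and a mean of at least 100 normalized counts. Other names were chosen after their values were seen. Exons and neighbouring genes came from the GENCODE annotation of GRCm38 and promoters from RefSeq. Alternatives were DESeq2 1.42.0, other scalings, filters and thresholds, summed transcripts, a replicate block and each library left out. Libraries with the same number come from different mice, and their deviations had a correlation of 0.0262. Results for some genes of the lists, and for the mismatch repair list, are not reported here.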

Additional observations from a re-analysis of the deposited data

How the results depend on the processing

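The count of 15 genes higher past both thresholds was 15 to 15 with each library left out, 15 under 7 of the other alternatives, 17 with scaling to endothelial markers and 12 with glmTreat, and the 15 genes were shared in all but glmTreat, where 12 were. The 25 genes higher at an adjusted p under 0.01 ranged from 23 to 24 with a library left out, and were 32 with scaling to endothelial markers and 23 in DESeq2's Wald test. The 3 lower were 3 to 3 with a library left out and 2 in that Wald test, where Atr lost its call. With a library left out the median log2 fold change ranged from 0.46 to 0.55. With the replicate block, although the numbers pair no mice, these values were 15, 25, 3 and 0.51, and no call of the 37 genes changed.

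Scaling to 12 endothelial markers assumes that those markers do not change. It left 1 gene lower in place of 3 and gave a median log2 fold change of 0.77. Under it the log2 fold changes of Rad50 (0.21), Nbn (0.16), Fance (0.16), Fancf (0.0869), Mus81 (0.17), Atr (0.0796), Top3a (0.22), BC029214 (0.0139) and Prkdc (0.0555) turned positive, and Rad50, Nbn, Mus81, Top3a, Xrcc2, Fancc and Fancg were called higher. With a library left out, that of Top3a ranged from -0.1364 to 0.0518 and was also positive without sham replicate 1 (0.0032). Over all genes tested, the counts higher and lower past both thresholds were 957 and 269, against 604 and 39 with glmTreat, 719 and 160 with a mean of at least 50 counts and 831 and 180 with DESeq2's Wald test. Of the 37 genes, low counts limit the precision most for Exo1, Rad54b and Fancf, with standard errors of 0.14 to 0.15. With 2 libraries per group, p-values measure only the spread between these libraries.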

Other observations

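Complexes of the wider recombination list, grouped here after their values were seen, also moved unevenly. Of the proteins that coat single-stranded DNA, Rpa2 rose by a log2 fold change of 0.53 ± 0.05, Rpa3 by 0.39 ± 0.07 and Rpa1 by 0.28 ± 0.03 (edgeR's quasi-likelihood test, adjusted p 5.12e-13, 2.23e-06 and 3.4e-12). Of the relatives of Rad51c outside the 37 genes, Rad51b rose from 37.4 to 84.8 normalized counts (log2 fold change 1.18 ± 0.21, adjusted p 2.2e-06), and Rad51d fell from 1078 to 938 (log2 fold change -0.20 ± 0.05, adjusted p 0.000386). Of the partners of BLM, Rmi2 rose from 21.0 to 110.1 counts (log2 fold change 2.37 ± 0.22, adjusted p 9.88e-15) and Rmi1 rose by 0.12 ± 0.04 (adjusted p 0.00715), beside -0.04 for Top3a. Gen1, a resolvase of joined molecules, rose from 52.6 to 215 counts (log2 fold change 2.03 ± 0.15, adjusted p 1.2e-18), and Slx4, the scaffold of another resolvase, changed by 0.05 ± 0.05 and was not called (adjusted p 0.322). The pair MMS22L and TONSL, which acts at replication forks, rose together, with log2 fold changes of 1.65 ± 0.09 for Mms22l and 1.16 ± 0.08 for Tonsl (adjusted p 9.71e-26 and 1.24e-19). Rad52 was not called, with 657 counts in sham ECs and 608 after PNX (adjusted p 0.132).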
